A study of Mus musculus with 12 samples.

Results

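The genes described here encode the proteins of the cytosolic ribosome. They were taken as all probes whose identifier holds the NCBI gene number of a gene with a symbol of Rpl or Rps and a digit, with at most the suffix a, x or l, together with Rplp0, Rplp1, Rplp2 and Rpsa. This gave 78 of the 46628 probes on the array, for 70 of the 8102 genes that could be named in this way: 45 probes for 39 genes of the large subunit and 33 probes for 31 genes of the small subunit. The RefSeq table used for naming lists 83 such symbols, and 13 of them had no probe named in this way, among them Rpl5, Rpl14, Rpl22, Rpl31 and Rplp1. Reading the identifiers as gene numbers is an inference. The number follows 1 zero in 57 members and 2 zeros in 21 members, and the members of the first kind had a median log2 signal of 13.2 against 6.30 for the second kind, so names of the second kind are less firm. A gene's probe of the second kind is called its second probe where the gene also has one of the first kind. Some genes, among them Rplp0 and Rps19, have only a probe of the second kind and carry their plain symbol here.

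RNA was profiled on 12 Illumina bead arrays, in 6 groups of 2 arrays each. All mice were Apcmin mice, which carry a mutated copy of the tumour suppressor Apc and form intestinal tumours, so the controls share that allele. Normal and tumour tissue came from 3 genotypes: wild type (wt), Notch-inactivated (Vil-Cre;Mib1f/f) and Notch-activated (Vil-Cre;RosaN1+/RN1). Villin-Cre acts in the gut epithelium, so cells of the stroma, the vessels and the immune system keep their unaltered alleles in every group. Mib1, the gene deleted there in the Notch-inactivated mice, encodes a ligase that lets Notch ligands signal; the labels do not say what the RosaN1 allele holds. The labels give no age, no segment of gut and no animal for any array, so the p-values measure the spread between these arrays, which may be technical. The title of the series names the question as the part of Notch signalling in the progression of colorectal tumours.

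A ribosome is a particle of ribosomal RNA and many proteins, shared between a small subunit that reads the mRNA and a large subunit that joins amino acids. The mRNAs of these proteins are among the most abundant of a dividing cell. Most start with a run of pyrimidines, the 5′ terminal oligopyrimidine (TOP) motif, through which the kinase mTOR controls their translation, and the transcription factor Myc is known to raise ribosome production in intestinal tumours that lack Apc. In the intestine, the dividing cells sit in the crypts, and tumours of Apc-mutant mice grow from such cells.

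After removal of probes at background, 73 members remained, for 67 genes (42 probes of the large and 31 of the small subunit). Background was the 95th percentile of 50 probes for foreign sequences on each array, between 5.66 and 5.97 in log2 signal, and probes above it on at least 2 arrays were kept. The members at background were Rpsa, Rpl18 and Rps18, and the second probes of Rpl17 and Rpl37, with means over the 12 arrays between 5.25 and 5.52. Another 5 members exceeded the limit on some arrays only: Rplp2 and Rps19 on 6 arrays each, Rpl4 and the second Rpl38 probe on 8 each, and the second Rpl23 probe on 9. The other 68 were above it on all 12. A probe's brightness depends on the probe as well as on its mRNA, so a dim probe says nothing about how much of the protein a cell makes. The 78 members had a median level of 12.8, against 6.50 for all 21819 probes kept. Of the 129 probes on the array with a mean above 13, 37 (28.7%) were members. The highest value on any array was 14.25. The members with the highest means were Rps27a, a ribosomal protein made as a fusion with ubiquitin, at 14.04, followed by Rpl38 at 13.92, Rpl37 at 13.90, and Rps20 and Rps14 at 13.85 each.

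Arrays of the same group did not agree equally well over these genes. In wild type normal tissue, 69 of the 73 members were higher on array 2 than on array 1, by a median of 0.19 on the log2 scale, while 51.3% of all probes were higher on array 2. In Notch-inactivated normal tissue this held for 66 members (median 0.16) and 50.9% of all probes. In Notch-activated tumours it held for 54 members (median 0.10), and in the other 3 groups for 26 to 35. Most totals of called members are therefore also given for fits that left out an array. Counts by separation of arrays, brightness, subunit or shared genotypes, and those of other gene lists, were made on all 12 arrays only. Values are the authors' normalized log2 signals. The log2 scale is inferred from their range. Differences are differences of group means, with the standard error (SE) of limma's fit over all 12 arrays, and a probe is called at a Benjamini-Hochberg adjusted p under 0.05 over all 21819 probes.

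Ribosomal protein mRNAs were higher in tumours than in normal tissue in each genotype, for some members and not for others. In wild type mice 31 of the 73 members rose and 2 fell, where 24.8% of all probes tested rose and 27.1% fell. In Notch-inactivated mice 41 rose and 4 fell (all probes: 26.2% and 26.7%). In Notch-activated mice 18 rose and 1 fell (all probes: 12.9% and 13.4%). The median difference of the members was 0.24, 0.37 and 0.23 in that order, against -0.03, -0.01 and -0.02 over all probes. The differences were small: the middle 50% of members lay between 0.11 and 0.42 in wild type mice, between 0.10 and 0.53 in Notch-inactivated mice and between 0.10 and 0.36 in Notch-activated mice.

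**Figure D1:**
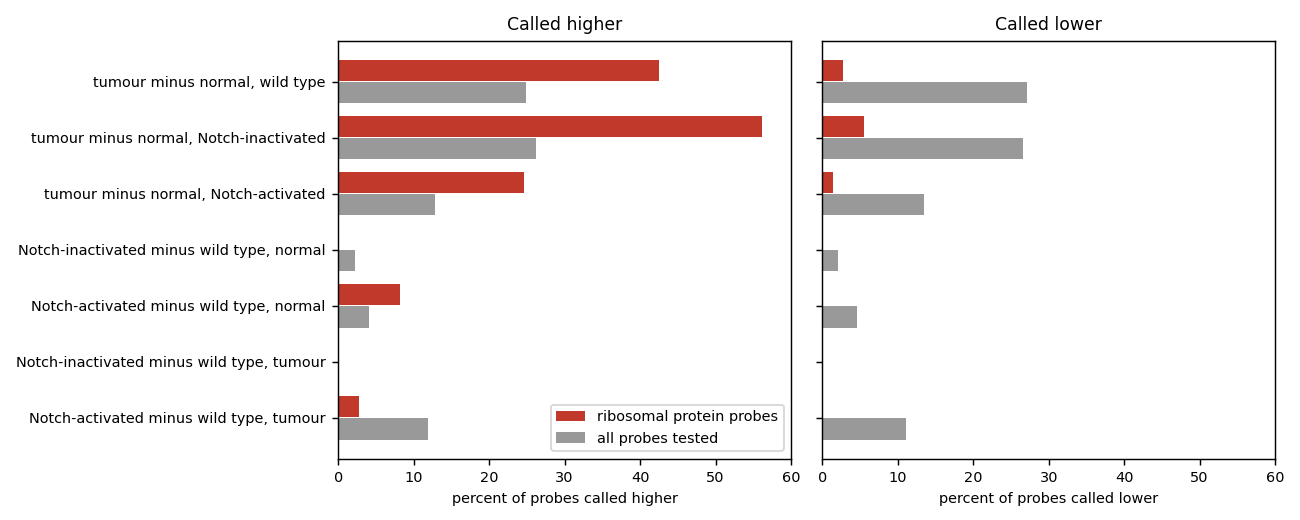
Percent of probes called higher (left) and lower (right) in 7 comparisons, for the 73 ribosomal protein probes (red bars) and all 21819 probes tested (grey bars). In the 3 comparisons of tumour with normal tissue the members were called higher in 31, 41 and 18 cases and lower in 2, 4 and 1, whereas all probes were called about as often in either direction.

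On every one of the 6 tumour arrays 31 members (42.5%) read higher than on any of the 6 normal arrays, among 15.8% of all probes. A single member, the second Rpl23 probe, was lower on all tumour arrays than on any normal array, among 16.3% of all probes. The members separated upwards came from both subunits, among them Rpl3, Rpl6, Rpl7, Rpl7a and Rpl12 of the large subunit and Rps3, Rps6, Rps12 and Rps13 of the small subunit. Relative to the mean of the wild type normal arrays, the median member stood between -0.09 and 0.12 on the normal arrays and between 0.26 and 0.41 on the tumour arrays.

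**Figure D2:**
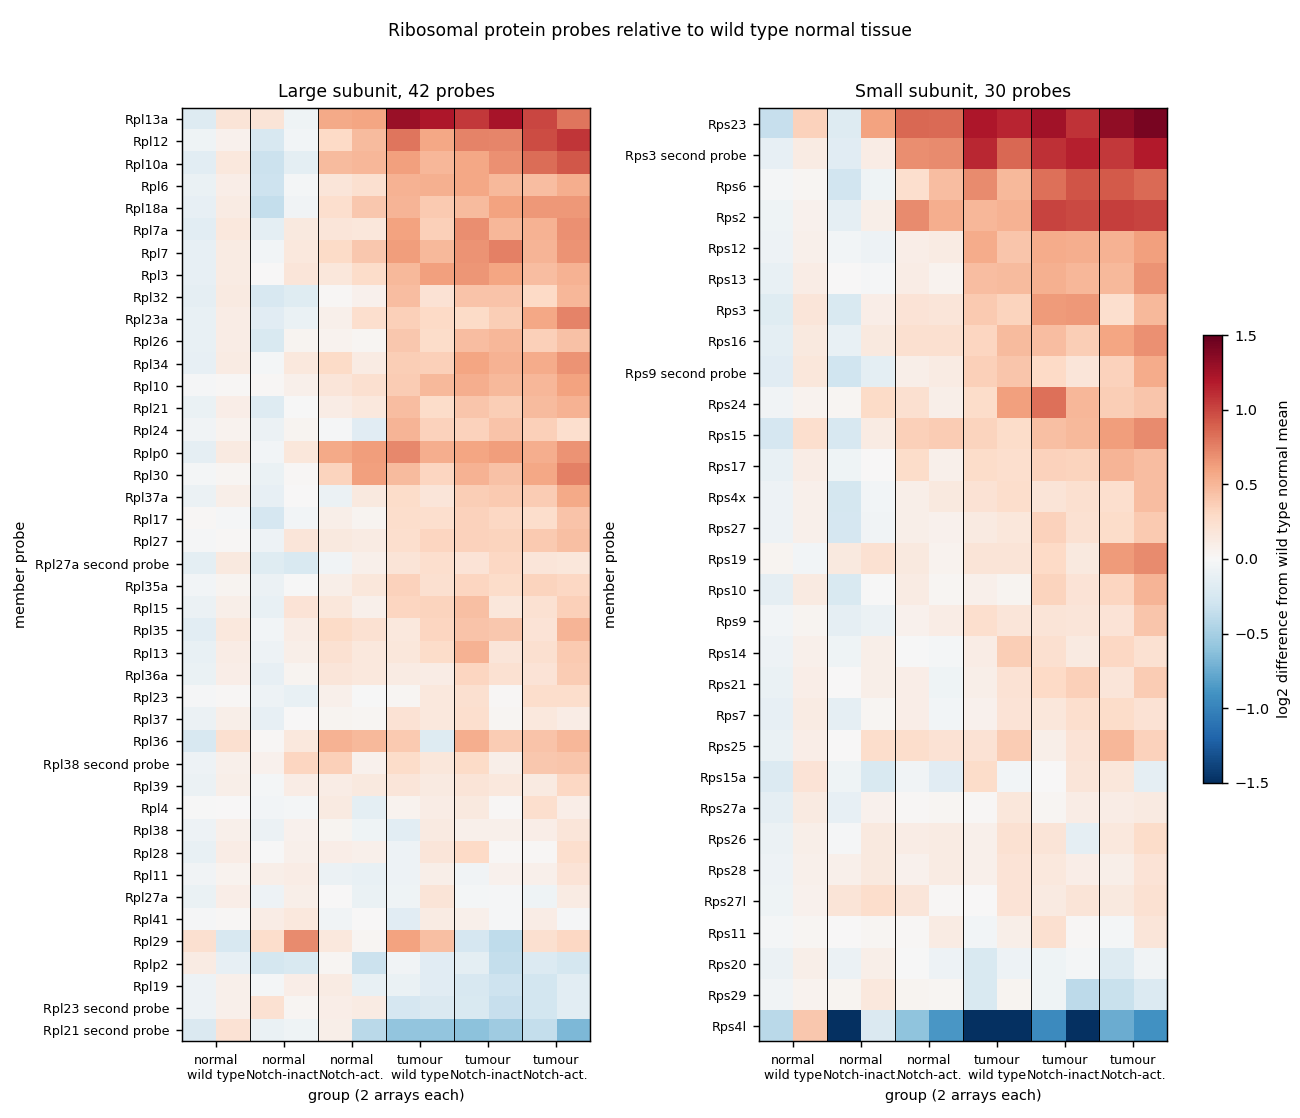
Log2 difference of each kept member from the mean of the 2 wild type normal arrays, 1 column per array and 1 row per probe, for the large (left, 42 probes) and small subunit (right, 30 probes drawn), ordered by the difference between tumour and normal means; colours are capped at 1.5. Red fills the tumour columns for most probes at the top of both panels, and the median member lies between 0.26 and 0.41 on the tumour arrays.

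In the tumours, markers of several other cell types were higher as well, and others were not. A list of markers was read as the log2 of the summed signals of its tested markers, in which the brightest weigh most. For 5 tested of 8 fibroblast markers this value ranged from 8.23 to 8.92 on normal arrays and from 11.9 to 13.3 on tumour arrays. For 6 of 11 myeloid markers it ranged from 8.15 to 9.02 and from 11.4 to 12.7, with Ptprc at background in every group, and for 4 of 7 endothelial markers from 7.36 to 7.59 and from 9.28 to 9.85. For 2 of 7 B and plasma cell markers the ranges were 7.55 to 9.87 and 12.4 to 13.9, and for 2 of 4 red blood cell markers 8.19 to 10.5 and 9.95 to 13.2. Of the B and plasma cell markers, the light chain gene Igkc rose by 5.89, 3.91 and 3.23 in the 3 genotypes, while the heavy chain gene Ighm differed by -0.02, -0.09 and 0.29 and was not called. The log2 of the summed signals of 3 of 5 Paneth cell markers was 7.08 to 7.81 in wild type and Notch-activated normal tissue. It was 12.71 to 12.99 in Notch-inactivated normal tissue. In wild type and Notch-inactivated tumours it was 13.1 to 13.8, and in Notch-activated tumours 7.02 to 8.14. The lists for smooth muscle, T cells and goblet cells had 1 tested marker each. Acta2, of smooth muscle, rose by 1.26, 1.56 and 1.05. Cd3e, of T cells, differed by -0.06, 0.18 and 0.06 and was not called. Clca1, of goblet cells, differed by -3.94, -3.81 and -2.07 (SE 1.51 each) and was not called by limma (adjusted p = 0.0508, 0.0564 and 0.339), while at an unadjusted p under 0.05 it was lower in wild type and Notch-inactivated tumours. For the keratins Krt8, Krt18 and Krt19, the 3 tested of 8 epithelial markers, the log2 of the summed signals lay between 13.96 and 14.48. The single keratins went different ways. Krt18 rose by 0.59 in wild type tumours. Krt19 fell by 0.69 in wild type and by 1.03 in Notch-inactivated tumours, and Krt8 fell by 0.34 in Notch-inactivated tumours. In Notch-activated tumours 0 of the 3 keratins were called by limma, also at an unadjusted p under 0.05. The part of these cell types in the ribosomal protein differences was not tested. In such bulk samples, a change in the mix of cells and a change in the RNA of each cell cannot be told apart.

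The rise was seen mostly among members of intermediate brightness. Of the 28 members with a mean between 8 and 13, 23 rose in wild type tumours, 26 in Notch-inactivated tumours and 11 in Notch-activated tumours. Other probes in the same range rose in 28.5%, 27.5% and 12.2% of cases. Of the 37 members above 13, near the top of the scale, 8, 15 and 6 rose, where other probes above 13 rose in 16.3%, 22.8% and 3.26% of cases. The median difference was 0.45, 0.54 and 0.34 in the middle range and 0.15, 0.27 and 0.18 above 13. Of the 8 members at 8 or below, 0 rose in wild type or Notch-inactivated tumours by limma, also at an unadjusted p under 0.05, and 2 fell in each. In Notch-activated tumours 1 of these 8 rose and 1 fell. How far the upper end of the scale limits the differences of the brightest probes was not tested.

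**Figure D3:**
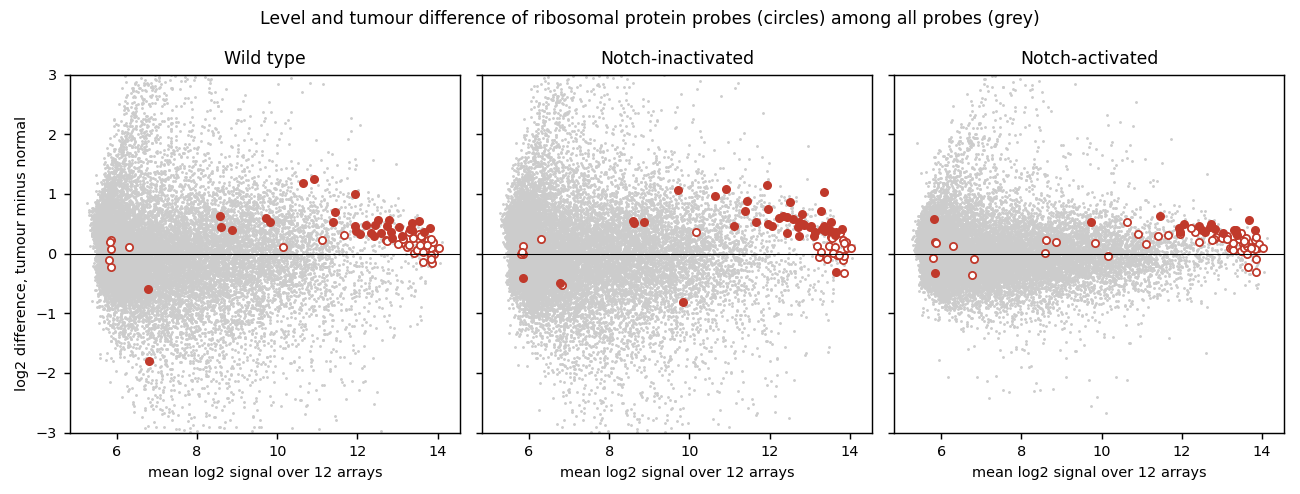
Mean log2 signal over the 12 arrays (horizontal axis) against the log2 difference of tumour minus normal tissue (vertical axis, cut at -3 and 3, so that some grey probes lie outside) in wild type (left), Notch-inactivated (middle) and Notch-activated mice (right). Filled circles are ribosomal protein probes called at an adjusted p under 0.05, open circles the other members, and grey dots all probes tested; the members with means between 8 and 13 lie mostly above 0, with medians of 0.45, 0.54 and 0.34.

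The large subunit contributed 21 risen and 1 fallen of 42 probes in wild type tumours, and the small subunit 10 and 1 of 31. In Notch-inactivated tumours the counts were 24 and 4 for the large subunit and 17 and 0 for the small one, where Rps29 of the small subunit differed by -0.32 (SE 0.13, adjusted p = 0.064). In Notch-activated tumours they were 9 and 1, and 9 and 0. Whether the subunits differ was not tested. The same 15 members rose in all 3 genotypes, among them Rpl10, Rpl10a, Rpl12, Rpl21, Rpl23a, Rpl24, Rpl26 and Rpl34 of the large subunit, and Rps2, Rps6, Rps12, Rps13 and the second Rps3 probe of the small subunit. A further 28 rose in 1 or 2 genotypes, and 26 were called in none, among them Rpl11, which binds the p53 regulator Mdm2, Rpl13, Rpl15, Rps7, Rps14 and Rps27a. Of these, Rps14 still read higher on every tumour array than on any normal array. The 26 also include Rplp2, Rpl4 and the second Rpl38 probe, which exceeded background on some arrays only. The shares of all probes called in all 3 genotypes, in 1 or 2, or in none were not counted.

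The count for wild type tumours depended on single arrays. It was 16 without array 1 of wild type normal tissue, the one on which the members read lower, and 31 without array 2. Leaving out tumour array 1 or 2 gave 17 or 21, and a fit to the 4 arrays compared gave 18. For Notch-inactivated tumours the counts were 25 and 40 without normal array 1 and 2, and 28 and 33 without tumour array 1 and 2. For Notch-activated tumours they were 9 and 8 without normal array 1 and 2, and 8 and 4 without tumour array 1 and 2.

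The members that changed most are described with their signals on each array. Rpl13a, a protein of the large subunit that also takes part in silencing the translation of inflammatory mRNAs in human monocytes, read 10.05 and 10.45 in wild type normal tissue, 10.44 and 10.19 with Notch inactivated and 10.82 and 10.84 with Notch activated. The tumours of the same 3 genotypes read 11.54 and 11.46, 11.31 and 11.49, and 11.25 and 11.05. All tumour arrays lay above all normal arrays, and among the normal arrays the Notch-activated pair was the highest. The difference between tumour and normal tissue was 1.26 (SE 0.15, adjusted p = 8.2e-05, 2.39-fold) in wild type mice and 1.08 (SE 0.15, adjusted p = 2.2e-04, 2.12-fold) in Notch-inactivated mice. In Notch-activated mice it was 0.32 (SE 0.15, adjusted p = 0.13) and was not called. A probe for an Rpl13a transcript, named on the array by its accession and not among the members, gave 1.31, 1.11 and 0.32 for the same differences (SE 0.11 each).

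Rps3, which sits at the mRNA entry channel of the small subunit and also acts in DNA repair, has probes of both kinds. The second probe read 11.16 and 11.40, 11.11 and 11.39, and 11.98 and 11.99 in normal tissue of the 3 genotypes, wild type first and Notch-activated last, and 12.42 and 12.14, 12.37 and 12.44, and 12.34 and 12.47 in their tumours. Its tumour arrays were close to each other in all genotypes, while its Notch-activated normal arrays stood between the other normal arrays and the tumours. It rose by 1.0, 1.16 and 0.42 (SE 0.13 each) in tumours of these genotypes. Its call in Notch-activated tumours ended in some fits that left out an array. The first probe, near the top of the scale with a mean of 13.28, rose in Notch-inactivated tumours (0.71, SE 0.15) and was not called in wild type (0.36, SE 0.15, adjusted p = 0.060) or Notch-activated tumours (0.18, SE 0.15).

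Rps2, a protein at the mRNA channel of the small subunit, read 12.76 and 12.90 in wild type normal tissue, 12.69 and 12.92 in Notch-inactivated and 13.55 and 13.37 in Notch-activated normal tissue. The tumours read 13.33 and 13.36, 13.84 and 13.82, and 13.87 and 13.85 in the same order. The wild type tumours lay just below Notch-activated normal tissue, and the other tumours above all normal arrays. It rose by 0.51, 1.02 and 0.40 (SE 0.11 each). Its call in Notch-activated tumours ended in some fits that left out an array.

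Rps6, the substrate of S6 kinase by which mTOR activity is often read, had signals of 9.27 and 9.33, 9.01 and 9.24, and 9.56 and 9.76 in normal tissue, in the same order of genotypes. Its tumour arrays had 10.004 and 9.78, 10.13 and 10.24, and 10.22 and 10.15. All tumour arrays lay above all normal arrays, by a narrow margin between Notch-activated normal and wild type tumour tissue. The rise was 0.59, 1.06 and 0.53 (SE 0.12 each). The Rps6 call in Notch-activated tumours ended in some fits that left out an array. Rps23, a protein of the decoding centre, spread more: 9.50 and 10.18 in wild type normal tissue, 9.65 and 10.44 in Notch-inactivated and 10.70 and 10.69 in Notch-activated normal tissue, against 11.05 and 10.98, 11.10 and 10.92, and 11.17 and 11.27 in tumours. It rose by 1.17 (SE 0.25) in wild type and 0.97 (SE 0.25) in Notch-inactivated tumours and was not called in Notch-activated tumours (0.52, SE 0.25, adjusted p = 0.15). The call in Notch-inactivated tumours ended in 2 of the 12 fits that left out an array.

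Rpl12, which lies at the base of the stalk, rose in all genotypes, by 0.69, 0.88 and 0.64 (SE 0.12 each). Normal arrays of the 3 genotypes gave 10.93 and 11.06, 10.76 and 10.96, and 11.30 and 11.47, and tumour arrays 11.80 and 11.58, 11.74 and 11.73, and 11.98 and 12.07. Groups of normal and tumour arrays did not overlap. The stalk itself, which recruits translation factors, is represented by Rplp0 and Rplp2. The Rplp0 probe is of the second kind, so its name is less firm. Rplp0 rose by 0.63 (SE 0.12) in wild type and 0.55 (SE 0.12) in Notch-inactivated tumours, from 8.03 and 8.30 to 8.88 and 8.71, and from 8.12 and 8.34 to 8.76 and 8.80. In Notch-activated mice it stood at 8.74 and 8.79 in normal and 8.71 and 8.84 in tumour tissue, a difference of 0.01 (SE 0.12). Rplp2 was near background on all arrays (5.61 to 6.09). Rpl10, which is among the last proteins to join the large subunit, rose by 0.44, 0.47 and 0.34 (SE 0.09 each), and Rpl32, often used as a reference gene, rose by 0.34 and 0.64 (SE 0.12 each) in wild type and Notch-inactivated tumours. In Notch-activated tumours, Rps13 rose by 0.50 (SE 0.10). The calls of Rpl10 and Rps13 in Notch-activated tumours and of Rpl32 in wild type tumours ended in some fits that left out an array. Rps19, which is mutated in the human Diamond-Blackfan anaemia, was at background on both Notch-activated normal arrays (5.74 and 5.65) and read 6.24 and 6.31 in the tumours, so that it was at least 1.41-fold higher there (adjusted p = 0.0022). The Rps19 probe is of the second kind too, so its name is less firm.

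**Figure D4:**
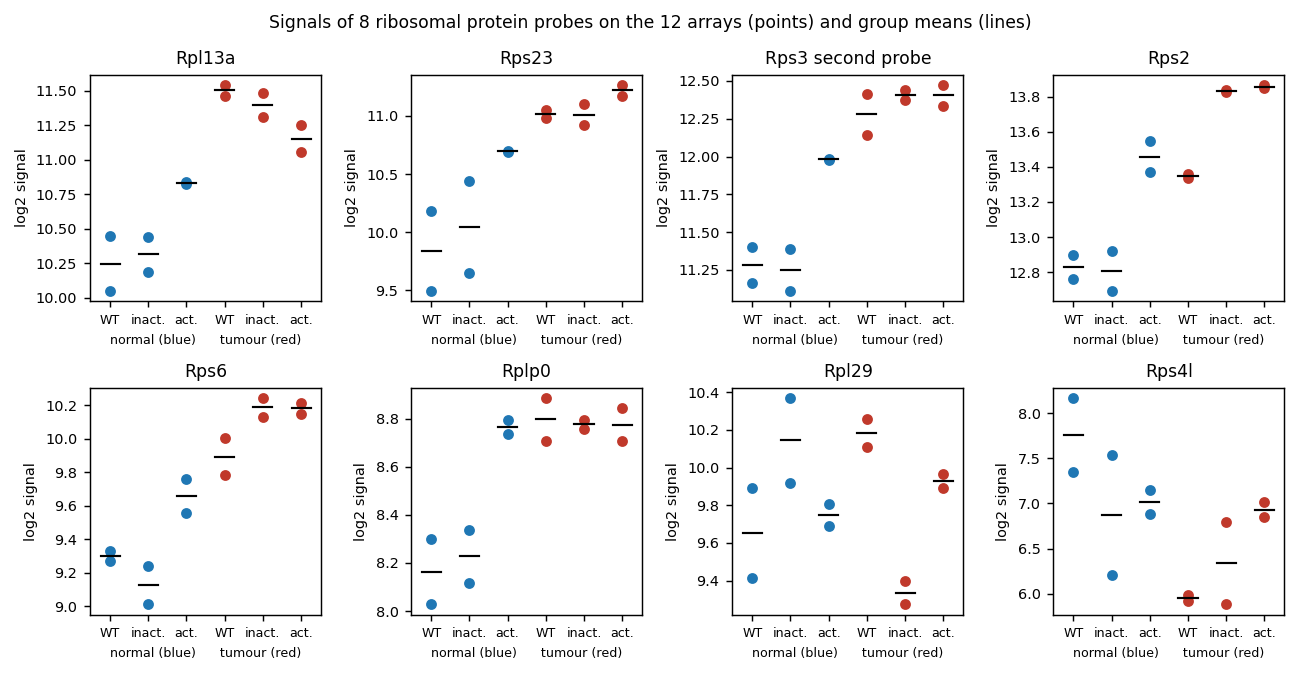
Log2 signals of 8 ribosomal protein probes on the 12 arrays (points; blue normal, red tumour) with the mean of each group of 2 arrays (lines); the vertical axes differ between panels and do not start at 0. Rpl13a, Rps23, the second Rps3 probe and Rps6 lie higher on all tumour arrays than on all normal arrays, Rplp0 in Notch-activated normal tissue reads 8.74 and 8.79, and Rpl29 reads 9.40 and 9.27 in Notch-inactivated tumours.

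The members that rose by about 1 or more in wild type or Notch-inactivated tumours were Rpl13a, Rps2, Rps23, Rps6 and the second Rps3 probe. The first Rps3 probe differed by less. The sequence around the annotated starts of these genes is therefore shown. Each run is 160 bases, from 130 before the start to 30 from it, 5′ to 3′ on the strand of the gene, from RefSeq on GRCm38.p6. The windows are chr7:45128716-45128875 (minus strand) for Rpl13a, chr7:99483680-99483839 (minus strand) for Rps3, chr17:24719933-24720092 (plus strand) for Rps2, chr13:90922992-90923151 (plus strand) for Rps23 and chr4:86857338-86857497 (minus strand) for Rps6. Capitals mark CCGGAAG or its reverse complement CTTCCGG, a core of the sites of ETS factors such as GABP. They also mark CTTTC, a pyrimidine run as in TOP starts, on the strand of the gene. In Rpl13a the CTTTC begins 9 bases after the annotated start.
Rpl13a: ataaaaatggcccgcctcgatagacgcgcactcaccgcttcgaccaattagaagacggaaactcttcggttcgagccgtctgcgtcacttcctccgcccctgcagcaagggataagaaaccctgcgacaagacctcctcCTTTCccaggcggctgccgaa
Rps3: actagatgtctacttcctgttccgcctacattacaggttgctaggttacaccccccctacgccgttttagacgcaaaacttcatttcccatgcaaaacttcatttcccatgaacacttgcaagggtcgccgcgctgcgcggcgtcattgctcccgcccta
Rps2: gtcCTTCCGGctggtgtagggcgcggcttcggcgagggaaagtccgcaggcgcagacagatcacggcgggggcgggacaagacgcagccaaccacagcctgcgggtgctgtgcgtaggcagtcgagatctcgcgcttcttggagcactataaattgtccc
Rps23: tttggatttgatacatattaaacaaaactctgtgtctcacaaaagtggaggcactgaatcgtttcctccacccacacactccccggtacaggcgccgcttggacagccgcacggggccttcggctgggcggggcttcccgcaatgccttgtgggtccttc
Rps6: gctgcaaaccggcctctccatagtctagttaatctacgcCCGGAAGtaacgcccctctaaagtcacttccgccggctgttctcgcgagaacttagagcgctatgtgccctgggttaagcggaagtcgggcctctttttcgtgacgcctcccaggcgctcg
Over all members, 52 of 70 genes had a promoter entry of 300 bases, from 250 before to 50 after the start. CCGGAAG was found on either strand in 44.2% of them, against 9.93% of the 27025 genes in the table. AAGATGGC, a YY1 motif, was found in 7.69% against 3.19%. CTTTC was found on the strand of the gene within 50 bases of the start in 53.8% against 14.6%. These matches are letters in a window and were not tested for binding. A CTTTC match anywhere in its window does not show that the mRNA begins with it. A missing match says only that the letters are not there.

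The members that fell were few. Rps4l, which RefSeq classes as a transcribed pseudogene, read 7.34 and 8.17 in wild type normal tissue and 5.93 and 5.99 in wild type tumours, a fall of 1.80 (SE 0.42, adjusted p = 0.0054). Its signals in the other groups ranged from 5.89 to 7.53, and it was not called in Notch-inactivated (-0.53) or Notch-activated mice (-0.09, SE 0.42 each). The related X-linked Rps4x rose by 0.37 (SE 0.11) in Notch-inactivated tumours. Rps27l, a paralog of Rps27 and a known p53 target, was called in none of these comparisons, while Rps27 rose by 0.44 (SE 0.10) in Notch-inactivated tumours.

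Rpl21 was the one gene whose probes were called in opposite directions. Its first probe rose by 0.37, 0.50 and 0.37 (SE 0.11 each). Its second probe, with a mean of 6.76, fell by 0.59 in wild type and 0.49 in Notch-inactivated tumours (SE 0.18 each). The second Rpl23 probe fell by 0.42 in Notch-inactivated and 0.33 in Notch-activated tumours (SE 0.10 each), at levels of 5.58 to 6.16, whereas the first Rpl23 probe was called in no genotype. Each call of the second Rpl21 and Rpl23 probes ended in some of the 12 fits that left out an array. Rpl19 fell by 0.31 (SE 0.11, adjusted p = 0.039) in Notch-inactivated tumours, a call that 7 of the 12 fits leaving out an array ended.

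Rpl29, a small protein of the large subunit, was the only member with opposite calls in different genotypes. It read 9.89 and 9.42 in wild type normal tissue and 10.26 and 10.11 in wild type tumours, and rose by 0.53 (SE 0.18, adjusted p = 0.028). In Notch-inactivated mice normal arrays gave 9.92 and 10.37 and tumour arrays 9.40 and 9.27, and it fell by 0.81 (SE 0.18, adjusted p = 0.0036). In Notch-activated mice it read 9.81 and 9.69, and 9.89 and 9.96. The call in wild type mice ended in 3 of the 12 fits that left out an array, and that in Notch-inactivated mice in 0. The effect of Notch inactivation in tumours minus that in normal tissue was -1.34 (SE 0.25, adjusted p = 0.046), and Rpl29 was the only member called in this test, among 0.477% of all probes called lower and 0.289% called higher. The call ended in 10 of the 12 fits that left out an array, with adjusted p up to 0.14.

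Notch activation was compared with wild type in normal tissue, where 6 members rose and 0 fell by limma, against 4.03% and 4.62% of all probes. At an unadjusted p under 0.05 the counts were 14 and 0. The second Rps3 probe rose by 0.70 (SE 0.13), Rps2 by 0.63 (SE 0.11), Rplp0 by 0.60 (SE 0.12), Rpl13a by 0.58 (SE 0.15), Rpl10a by 0.49 (SE 0.12) and Rpl30 by 0.48 (SE 0.12). Adjusted p-values ran from 0.0053 for Rps2 to 0.036 for Rpl13a. Only the Rps2 call held in every fit that left out an array. These 6 rose in wild type tumours as well, a comparison that shares the wild type normal arrays. Rpl30, whose protein binds its own transcript in yeast, read 8.51 and 8.56 in wild type normal and 8.87 and 9.14 in Notch-activated normal tissue, and Rpl10a read 11.96 and 12.27, and 12.59 and 12.61. In these normal samples the groups did not overlap for any of the 6. These were picked by their calls on the same arrays, and the share of all probes without overlap was not counted. The Rplp0 probe among them is of the second kind, with a less firm name. Rps23 had the largest difference, 0.86 (SE 0.25), and was not called (adjusted p = 0.070). The median over the 73 members was 0.11, against 0.01 over all probes. The count was 2 and 1 without array 1 and 2 of Notch-activated normal tissue, 1 and 7 without array 1 and 2 of wild type normal tissue, and 3 in a fit to the 4 arrays compared. Array 1 of wild type normal tissue is the one on which 69 members read lower.

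The comparison of Notch-activated with wild type normal tissue shares no array with that of Notch-inactivated tumours with their normal tissue. Over the 73 members the differences of these comparisons correlated at r = 0.69 (Spearman's rho 0.66). Without array 1 of both wild type and Notch-inactivated normal tissue r was 0.60 (rho 0.44), and without array 2 of both it was 0.72 (rho 0.72), settings chosen after the data were seen. This is a description across genes, which are not independent replicates, and probe brightness is common to both. The differences between tumour and normal tissue, which also share no arrays between genotypes, correlated at r = 0.74 for wild type with Notch-inactivated, 0.63 for wild type with Notch-activated and 0.70 for Notch-inactivated with Notch-activated mice.

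**Figure D5:**
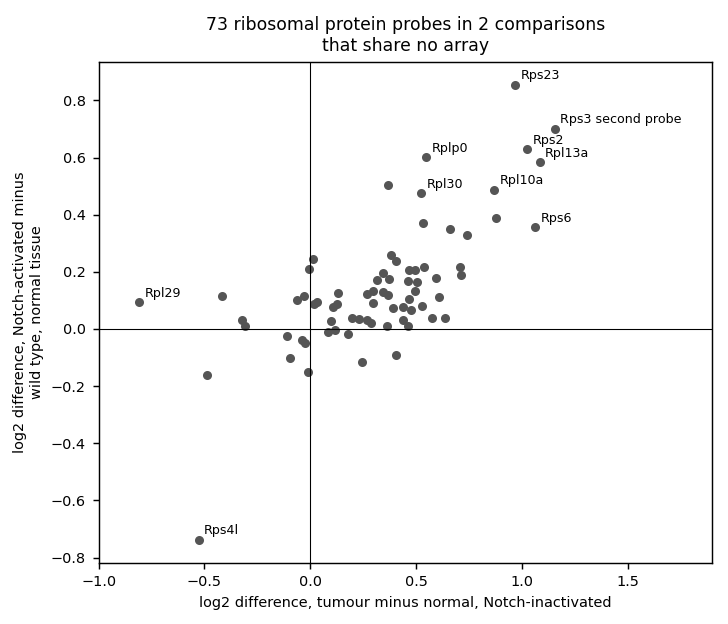
Log2 difference of each of the 73 ribosomal protein probes between tumour and normal tissue of Notch-inactivated mice (horizontal axis) and between Notch-activated and wild type normal tissue (vertical axis), 1 point per probe. Rpl13a, Rps2 and the second Rps3 probe lie far to the right and high (1.08 and 0.58, 1.02 and 0.63, 1.16 and 0.70), and the correlation over all points is 0.69.

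In tumours, Notch activation went with a rise of 2 members and a fall of 0 by limma, where 11.9% of all probes rose and 11.1% fell. At an unadjusted p under 0.05 the counts were 10 and 1. The risen members were Rps2 (0.51, SE 0.11, adjusted p = 0.0064) and Rps19 (0.49, SE 0.09, adjusted p = 0.0039). Rps19 was above background in Notch-activated tumours at 6.24 and 6.31 and read 5.79 on both wild type tumour arrays. Its probe is of the second kind, so its name is less firm. A fit to the 4 arrays compared called 4 members higher, as did the fits without either wild type normal array.

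Notch inactivation changed no member against wild type in either tissue by limma, at 0 higher and 0 lower of 73 in both. The lowest adjusted p was 0.17 in normal and 0.17 in tumour tissue, both for Rpl29. At an unadjusted p under 0.05, 1 member was higher and 0 lower in normal tissue, and 2 were higher (Rps2 and Rps6) and 1 lower (Rpl29) in tumours. Of all probes, normal tissue had 2.3% called higher and 2.13% called lower, and tumours had 0.124% and 0.101%. The median member differed by -0.01 in normal tissue and by 0.05 in tumours.

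The tissue difference of the Notch-activated effect (its effect in tumours minus that in normal tissue) was called for Rpl13a at -0.93 (SE 0.21, adjusted p = 0.016) and for Rplp0 at -0.62 (SE 0.17, adjusted p = 0.042). No member was called in the other direction by limma, and 2 were positive at an unadjusted p under 0.05. Over all probes 7.11% were called higher and 5.91% lower. Rpl13a was 0.58 higher with Notch activation in normal tissue and 0.35 lower in tumours, the latter not called (SE 0.15, adjusted p = 0.12). The Rpl13a probe named by accession gave -0.99 (SE 0.16, adjusted p = 0.0041) for the same term. Rplp0 was 0.60 higher in normal tissue and differed by -0.02 (SE 0.12) in tumours. Its probe is of the second kind, so its name is less firm. The Rplp0 call ended in 8 and the Rpl13a call in 3 of the 12 fits that left out an array.

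Genes that build ribosomes or work with them were read beside the members, in lists that are described by their counts and medians. Each count of genes that rose stands against 24.8%, 26.2% and 12.9% of all probes that rose in the tumours of wild type mice and of mice with Notch inactivated and activated, and each count of genes that fell against 27.1%, 26.7% and 13.4%. Of 22 tested ribosome biogenesis genes, 15 rose in wild type tumours, and 11 and 12 rose with Notch inactivated and activated, while 0 fell by limma, also at an unadjusted p under 0.05. Their median difference was 0.49, 0.36 and 0.49, where that of all probes was -0.03, -0.01 and -0.02. Rrp1b, a nucleolar protein, rose by 1.28 (SE 0.16) in wild type tumours, and Nhp2, Nop56 and Fbl, proteins of the particles that modify ribosomal RNA, rose by 1.16, 1.05 and 0.92. With Notch activation in normal tissue 0 of the 22 were called by limma, and 1 was higher and 2 were lower at an unadjusted p under 0.05.

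Of 25 translation factors, 12 rose and 2 fell in wild type tumours, 9 rose and 2 fell in Notch-inactivated tumours, and 6 rose and 1 fell in Notch-activated tumours, with medians of 0.21, 0.23 and 0.20. In wild type tumours the inhibitor of cap binding Eif4ebp1 rose by 0.95, the poly(A) binding protein Pabpc1 by 0.95, the helicase Eif4a1 by 0.91 and the initiation factor subunit Eif3a by 0.86. Eif6, which keeps the subunits apart, fell by 0.74 in wild type and 0.80 in Notch-inactivated tumours. Eef1a1 fell by 0.68, 0.64 and 0.63 in the 3 genotypes, at a mean level of 6.8. Of 15 other mRNAs known to carry a TOP start, a list that shares 9 tested genes with the translation factors, 8 rose and 2 fell in wild type, 8 rose and 1 fell in Notch-inactivated, and 2 rose and 1 fell in Notch-activated tumours, with medians of 0.30, 0.28 and 0.22. The 2 of 15 in Notch-activated tumours are near the share of all probes that rose there. The fallen genes of this list were Eef1a1 and, in wild type tumours, Tpt1 (by 0.41, at a mean level of 6.6). How firmly such dim probes are named was not tested. Hnrnpa1, a splicing regulator, rose by 1.0, 1.27 and 0.74, and Naca, of the nascent chain complex, by 0.55 and 0.72 in wild type and Notch-inactivated tumours.

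Of 6 tested genes of the cytosolic tRNA synthetases and their complex, 2 rose in wild type tumours, Aimp1 by 0.53 and Farsa by 0.41. In Notch-inactivated tumours Aimp1 rose by 0.56 and Tars fell by 0.35, and in Notch-activated tumours Aars rose by 0.44 and Sars by 0.40. The medians of the list were 0.16, 0.07 and 0.16. Of 8 proliferation genes, 6 rose in wild type tumours, 3 in Notch-inactivated and 1 in Notch-activated tumours, the one being Mcm7, a subunit of the replicative helicase (1.14, 1.26 and 0.91). The 1 of 8 in Notch-activated tumours is near the share of all probes, and the medians were 0.62, 0.53 and 0.44. Of 10 genes often used as references, 2 rose and 1 fell in wild type tumours: Tubb5 by 1.58, Ppia by 0.44, and B2m, the light chain of MHC class I, fell by 0.92. With Notch inactivated 2 rose and 1 fell, and with Notch activated 2 rose and 0 fell by limma, also at an unadjusted p under 0.05. The medians were 0.03, -0.12 and 0.21. Actb and Gapdh differed by -0.01 and 0.19 in wild type mice and were not called in any genotype between tumour and normal tissue. The 3 control probes for 18S ribosomal RNA had means of 13.71, 11.91 and 13.44 in wild type normal tissue and 13.51, 11.75 and 13.19 in wild type tumours. In Notch-inactivated mice normal tissue gave 13.74, 12.03 and 13.49, and tumours gave 13.66, 12.004 and 13.27. In Notch-activated mice normal tissue gave 13.78, 11.99 and 13.61, and tumours gave 13.25, 11.49 and 12.73. A control probe for 28S ribosomal RNA was below the background limit in every group, with means between 5.47 and 5.59. Control probes were not tested.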

How the data were processed

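The deposited series table holds 1 value per probe and array. Per the labels' protocols, Trizol and RNeasy RNA was labelled as biotinylated cRNA for Illumina arrays. The table holds log2 signals, quantile normalized by the authors as far as the deposited values show: sorted columns differ by at most 5.43e-04. The log base is inferred from the range; the sources used here give neither software nor background correction. A companion table of signals (24 columns) was left out, because its column names match no sample's labels. Control probes (549) were left out, and 21819 of the other 46079 probes were kept. Gene numbers were matched to the RefSeq table of GRCm38.p6: 81.1% matched after 1 zero and 84.8% after 2 zeros, against 40.9% and 41.3% of numbers shifted by 7. One row per probe was fitted with limma 3.58.1 in R 4.3.3 (lmFit, eBayes; a mean per group over 12 arrays; 6 residual and 3.77 prior degrees of freedom), with Benjamini-Hochberg adjustment within each of 9 contrasts and a threshold of 0.05; the fit was tested on simulated data. Probes at background on both arrays of 1 group are given as bounds against the background limit. Named members are the 5 with the largest called rise and fall per contrast whose arrays did not overlap, members fixed by role, those with discordant probes, and the 5 brightest and dimmest; of other lists, up to 4 called genes. Alternatives were cyclic loess, other filters, 1 probe per gene, members after 1 zero, the arrays compared, a replicate block and leaving out each array. The members and lists were chosen with earlier results of these data known. Depth has no meaning on arrays; the number of arrays limits the precision. Values of 1 member are not reported here by name; it stays in the counts.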

Additional observations from a re-analysis of the deposited data

Results flagged for a closer look

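Rpl29 was singled out because the effect of Notch inactivation differed between tissues: -1.34 in tumours minus normal tissue (SE 0.25, limma adjusted p = 0.046), from 0.49 in normal tissue and -0.85 in tumours, neither called. All Notch-inactivated tumour arrays (9.40 and 9.27) lay below the wild type tumour arrays (10.26 and 10.11). The effect of Notch activation differed between tissues for Rpl13a by -0.93 (SE 0.21, adjusted p = 0.016) and for Rplp0 by -0.62 (SE 0.17, adjusted p = 0.042). For both, normal tissue was higher with Notch activation on both arrays, at 10.82 and 10.84 against 10.05 and 10.45 for Rpl13a, and at 8.74 and 8.79 against 8.03 and 8.30 for Rplp0. The number of the Rplp0 probe follows 2 zeros, so its name is less firm. Leaving out an array ended these calls in 10, 3 and 8 of 12 fits in the order Rpl29, Rpl13a and Rplp0. With groups of 2 arrays, single outlying arrays were not looked for.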

How the results depend on the processing

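Over all settings, 0 of the called differences of single members changed direction. Of 108 member calls, 47 held in every fit that left out 1 array and 61 ended in at least 1. These fits gave 16 to 34 members risen and 1 to 2 fallen in wild type tumours, 25 to 41 and 1 to 4 in Notch-inactivated tumours, and 4 to 21 and 0 to 1 in Notch-activated tumours. They gave 1 to 7 risen with Notch activation in normal tissue and 2 to 4 in tumours, 0 to 1 lower for the tissue difference of Notch inactivation, and 0 to 1 higher and 0 to 2 lower for that of Notch activation. A fit to the arrays compared, which has fewer samples, gave 18 risen in wild type tumours, 0 fallen in Notch-activated tumours, 3 and 4 risen with Notch activation in normal and tumour tissue, 0 lower for the tissue difference of Notch inactivation, and 1 higher and 1 lower for that of Notch activation. Cyclic loess gave 1 fallen member in wild type and 0 in Notch-activated tumours. Keeping probes above background on all 12 arrays gave 0 fallen in Notch-activated tumours and 1 risen with Notch activation in tumours. With 1 probe per gene, 1, 2 and 0 members fell in the tumours of the 3 genotypes, and among the 57 members after 1 zero also 1, 2 and 0, with 1 risen with Notch activation in tumours and 1 lower for its tissue difference; these settings test fewer probes. For the other settings the cause was not tested.

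The labels number the arrays 1 and 2 in every group without saying what a number shares. Over 15 pairs of groups the deviations of equal numbers correlated between -0.38 and 0.35 (median 0.01, 2 pairs over 0.1), so equal numbers were not read as pairs. The members alone were mostly higher on array 2 in some groups, 69 of 73 in wild type and 66 of 73 in Notch-inactivated normal tissue, and what a number shares for these genes is not known. With the replicate block, 31, 41 and 17 members rose and 2, 2 and 0 fell in the tumours of the 3 genotypes, and 0 were lower for the tissue difference of Notch inactivation, where Rpl29 had been called. Groups of 2 arrays, an upper end of the scale near 14 and dim second probes limit what these values can show.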
